A study of Mus musculus with 107 samples.

Results

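The genes described here are 10 transcription factors and markers of the naive pluripotent state, chosen by name: Esrrb, Nanog, Prdm14, Klf4, Klf2, Tfcp2l1, Tbx3, Nr0b1, Zfp42 and Dppa3, out of 51435 gene identifiers counted. All 10 had a row in every library and all 10 passed the filter on low counts. Their RNA was followed in 8 clones of B6NJ mouse embryonic stem cells, each with 1 distal element deleted on chromosome 9, 7, 3 or 2, and in the undeleted parental B6NJ line, and their chromatin was read in the mouse embryonic stem cell line E14. Poly(A) RNA was sequenced from clones chr9-F1 (2 libraries) and chr9-G9 (3 libraries), chr7-D4 and chr7-F4 (3 each), chr3-C2 and chr3-H7 (3 each), chr2-D10 and chr2-G5 (3 each), and from the parental line (3), 26 libraries in all. The deleted interval was chr9:37451506-37461721 in both chr9 clones and chr7:143440438-143450716 in both chr7 clones (mm10), and no source used here gives the chr3 and chr2 intervals. All B6NJ lines, the parental one included, grew on irradiated mouse embryonic fibroblasts in serum with the MEK inhibitor PD0325901 and the GSK3 inhibitor CHIR99021. E14 cells grew without feeders on gelatin in serum with LIF, so the RNA and the chromatin come from different lines in different media. Each line is 1 clone, and nothing says that its libraries came from separate cultures, so the spread between libraries may be technical.

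The naive state is the ground state of the mouse epiblast before implantation, and in culture it is held by LIF, which acts through STAT3, and by inhibitors of MEK and GSK3. STAT3 is known to induce Klf4 and Tfcp2l1, GSK3 inhibition relieves the repressor TCF7L1 at Esrrb and other targets, and MEK inhibition keeps differentiation signals from ERK down. Polycomb repressive complex 2 (PRC2) writes the mark H3K27me3 and keeps many developmental genes silent in these cells. RNA polymerase II (RNAPII) marks transcribed promoters and CTCF is the factor that delimits chromatin loops.

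RefSeq promoter entries (GRCm38.p6) matched 7 of the 10 genes, and 5 stretches of 250 bases ending just before a start site are shown, because the RNAPII or PRC2 peaks described further on reach into them. Nanog and Zfp42 hold a part of the octamer that POU factors bind, TTTGCAT, and Klf4, Klf2 and the second listed start of Esrrb hold KLF-type matches, GGGNGNGG, beneath or beside a PRC2 peak. Capitals mark every match on either strand to 5 motifs: AAGGTCA, bound by ESRRB, the KLF letters above, TTTGCAT, TTCNNNGAA, the STAT site, and CTTTGAT, the TCF and LEF site. Neighbouring capitals can be overlapping matches, and a run of G counts as a KLF match.
Nanog, chr6:122707239-122707488, plus strand: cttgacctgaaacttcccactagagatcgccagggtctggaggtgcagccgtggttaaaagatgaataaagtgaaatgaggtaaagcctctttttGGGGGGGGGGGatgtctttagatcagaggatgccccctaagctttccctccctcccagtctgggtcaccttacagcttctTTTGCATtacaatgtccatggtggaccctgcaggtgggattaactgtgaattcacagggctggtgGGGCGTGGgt
Zfp42, chr8:43307010-43307259, minus strand: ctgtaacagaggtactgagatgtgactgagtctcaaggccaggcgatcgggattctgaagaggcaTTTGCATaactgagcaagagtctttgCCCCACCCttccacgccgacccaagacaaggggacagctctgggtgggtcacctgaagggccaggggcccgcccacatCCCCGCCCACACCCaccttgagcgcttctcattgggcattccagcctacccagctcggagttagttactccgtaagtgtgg
Klf4, chr4:55532476-55532725, minus strand: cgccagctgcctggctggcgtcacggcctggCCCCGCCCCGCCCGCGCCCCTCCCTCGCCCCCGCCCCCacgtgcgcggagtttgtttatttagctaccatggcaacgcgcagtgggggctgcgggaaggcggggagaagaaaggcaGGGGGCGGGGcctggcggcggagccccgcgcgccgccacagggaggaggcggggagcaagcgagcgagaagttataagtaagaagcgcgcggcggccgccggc
Klf2, chr8:72318812-72319061, plus strand: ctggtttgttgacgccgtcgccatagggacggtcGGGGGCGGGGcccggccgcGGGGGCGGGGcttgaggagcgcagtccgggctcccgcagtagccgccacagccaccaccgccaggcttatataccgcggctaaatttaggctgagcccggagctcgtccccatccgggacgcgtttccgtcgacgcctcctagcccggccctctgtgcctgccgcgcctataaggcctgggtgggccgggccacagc
Esrrb, second listed start, chr12:86421394-86421643, plus strand: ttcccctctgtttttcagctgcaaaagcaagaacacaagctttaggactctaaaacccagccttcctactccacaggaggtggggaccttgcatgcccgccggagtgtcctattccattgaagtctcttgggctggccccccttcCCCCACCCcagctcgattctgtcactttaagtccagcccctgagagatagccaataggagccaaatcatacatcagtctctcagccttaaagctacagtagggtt
In Nanog TTTGCAT spans bases 75 to 69 before the start and in Zfp42 bases 185 to 179, while 4.12% of 32851 promoters of this length hold it. KLF letters are common, present in 45.9% of promoters, and were found in Esrrb, Nanog, Klf4, Klf2, Tfcp2l1 and Zfp42 and not in Nr0b1. The STAT letters (7.02% of promoters) occurred once, in the first listed start of Esrrb, and neither the ESRRB letters (4.08%) nor the TCF and LEF letters (3.21%) occurred in any of the 7 genes. The Klf4 and Klf2 stretches hold 32 and 29 CpG dinucleotides, against 3 in Nanog, 9 in Zfp42, 3 in this Esrrb stretch and a median of 6 over all promoters.

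Levels are CPM, counts per M counts of the library (M for mega), on library sizes scaled by TMM, and they are compared only within a gene because they are not divided by length. A difference is called where the adjusted p (Benjamini-Hochberg over 19993 tested genes) of edgeR's quasi-likelihood test is below 0.05, and a deletion's log2 value averages its 2 clones, each with equal weight, before the parental value is taken off. Libraries of the parental line and the chr9 clones held 90.3 to 128 M counts and those of the chr7, chr3 and chr2 clones 39.7 to 60.2 M. For these 3 deletions, depth and deletion cannot be told apart against the parental line, so the contrast of each with the other 2 is given as well.

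Against the parental line, 6 of the 10 factors rose and 1 fell in the chr9 clones, where 17.1% of all tested genes rose and 20.6% fell. In the chr7 clones 2 rose and 8 fell (all genes 27.6% and 35.7%), in the chr3 clones 2 rose and 6 fell (25.4% and 35.4%), and in the chr2 clones 4 rose and 5 fell (31.2% and 34.1%). The median of the 10 log2 changes was 0.27 for chr9, -0.46 for chr7, -0.45 for chr3 and -0.33 for chr2, beside -0.02, -0.07, -0.07 and -0.02 over all tested genes. Dppa3 was the only 1 of the 10 called in the same direction, higher, in all 4 deletions, and in the clone chr9-F1 it fell. Because the 4 comparisons share the same 3 parental libraries, their values are set side by side here and not correlated.

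**Figure D1:**
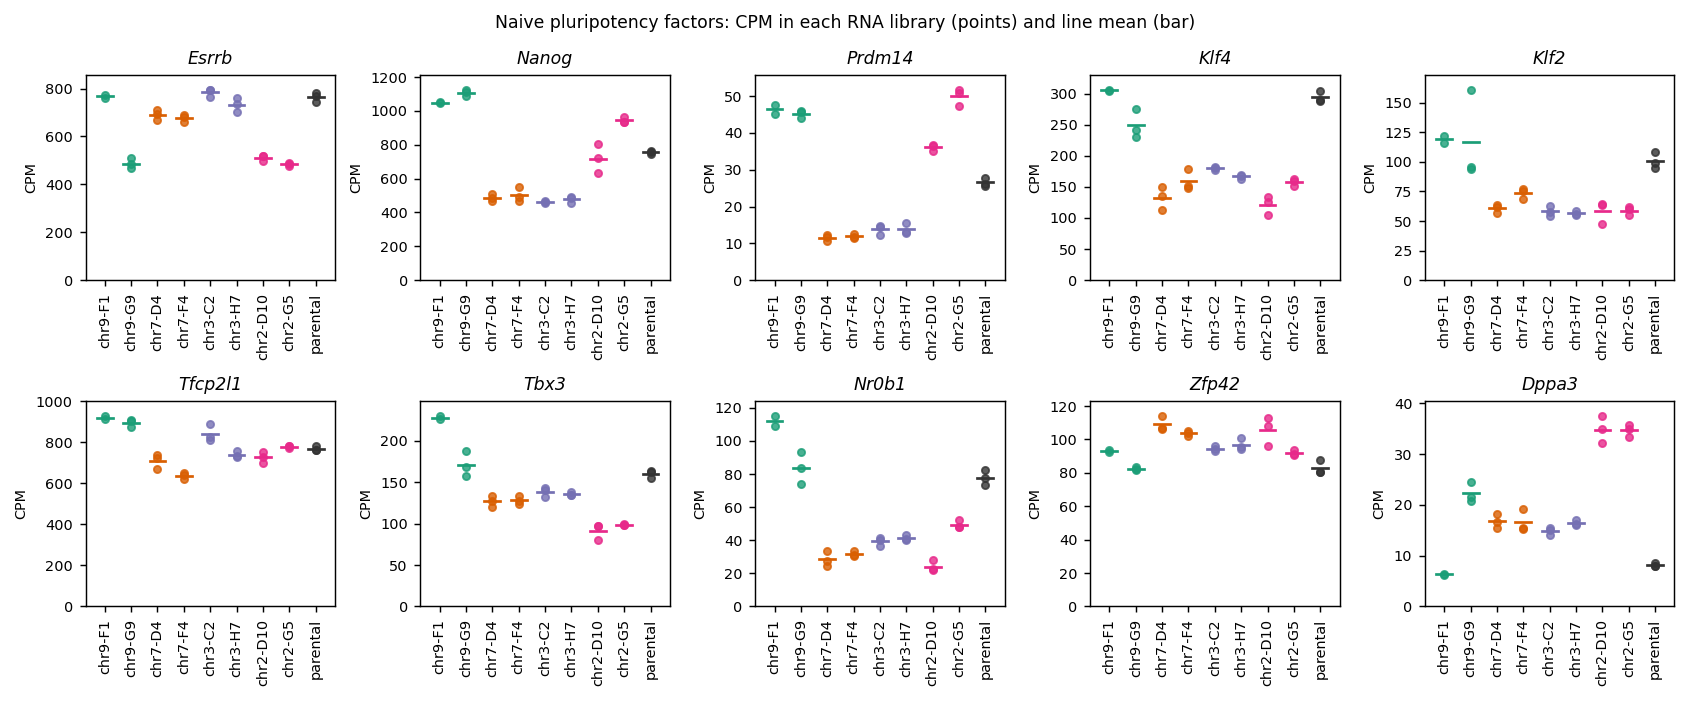
CPM of each of the 10 factors (y axes, from 0) in the 8 clones and, at the right of each panel, the parental line, with 1 point per library, 2 or 3 per line, and a bar at the line mean. Prdm14 shows 3 levels, 35.2 to 51.7 CPM in the chr9 and chr2 clones, 10.6 to 15.5 CPM in the chr7 and chr3 clones and 25.7 to 27.8 CPM in the parental line, and 1 chr9-G9 library has 161 CPM for Klf2 beside 93.8 and 95.9 CPM in the others of that clone.

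Nanog (ENSMUSG00000012396.12, chr6:122707489-122714633), the homeobox factor at the centre of the naive network, rose in the chr9 clones and fell in the chr7 and chr3 clones. It stood at 1044 and 1050 CPM in chr9-F1 and 1125, 1111 and 1089 CPM in chr9-G9, against 760, 746 and 761 CPM in the parental line. In the chr7 clones its lowest, median and highest values were 467, 490 and 548 CPM, and in the chr3 clones 454, 464 and 492 CPM. All 5 chr9 libraries lay above and all 12 chr7 and chr3 libraries below the parental range. The log2 differences were 0.51 ± 0.0532 (SE, adjusted p = 3.21e-09) for chr9, -0.61 ± 0.0494 (2e-12) for chr7 and -0.69 ± 0.0493 (1.61e-13) for chr3. In the chr2 clones Nanog overlapped the parental line, at 962, 933 and 936 CPM in chr2-G5 and 631, 803 and 720 CPM in chr2-D10. Its chr2 difference of 0.12 ± 0.0506 was called (adjusted p = 0.0331), but was lost without any 1 of 5 libraries, the 3 parental ones, chr2-D10 replicate 2 and chr2-G5 replicate 1 (adjusted p 0.0597 to 0.175).

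Prdm14 (ENSMUSG00000042414.7, chr1:13113428-13127163), a PR-domain protein known to hold down FGF receptor signalling and DNA methyltransferase genes in these cells, changed in the same directions as Nanog, with larger log2 values. Its chr9-F1 libraries stood at 45.2 and 47.6 CPM, those of chr9-G9 at 46, 45.7 and 44 CPM, and its chr2 values ran from 35.2 through 42.1 to 51.7 CPM, against 25.7, 27.8 and 26.1 CPM in the parental line. In the chr7 clones it ran from 10.6 through 11.7 to 12.6 CPM and in the chr3 clones from 12.4 through 13.8 to 15.5 CPM. No clone's libraries overlapped the parental ones. The log2 differences were 0.79 ± 0.0619 (adjusted p = 6.09e-12) for chr9, 0.68 ± 0.0604 (1.37e-11) for chr2, -1.18 ± 0.0604 (3.16e-17) for chr7 and -0.94 ± 0.0597 (8.43e-15) for chr3. Within the lower depth range the chr2 clones stood 1.74 ± 0.0428 above the mean of the chr7 and chr3 clones on the log2 scale, a 3.34-fold difference (adjusted p = 3.99e-26), and Nanog stood 0.77 ± 0.0349 above (5.52e-19). Over the 9 lines the line means of Nanog and Prdm14 had a Pearson r of 0.96, a description of lines that share a parent and, in pairs, a deletion and a depth range.

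The lines in which Prdm14 was higher are also those in which X-linked RNA was higher and Y-linked RNA lower. The median log2 difference of 735 X-linked genes from the parental line was 0.33 in chr9-F1, 0.50 in chr9-G9, 0.83 in chr2-D10 and 0.87 in chr2-G5, and -0.02 to 0.00 in the chr7 and chr3 clones. Summed Y-linked RNA was 14.6%, 18.8%, 14.4% and 21.4% of the parental level in those 4 clones, and 57.4% to 142% of it in the other 4. The part of this difference in the levels of Prdm14 and Nanog was not tested. Nanog did not follow it in chr2-D10, where its difference from the parental line was -0.07 (adjusted p = 0.265).

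**Figure D2:**
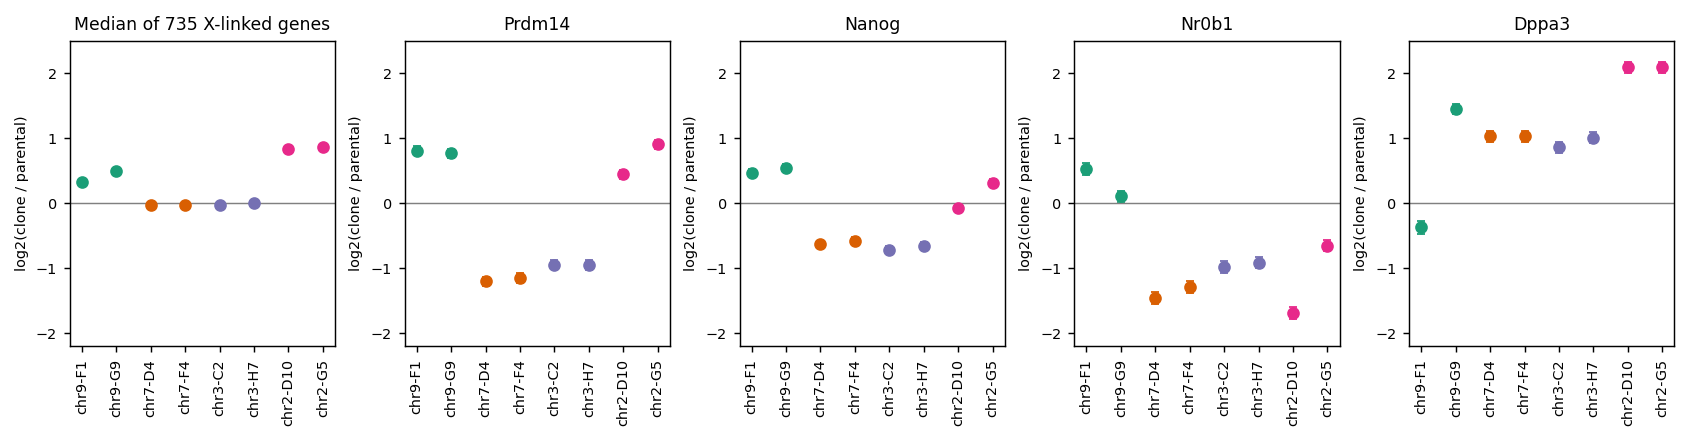
Log2 of clone over parental line (y axes) for the median of 735 X-linked genes and for Prdm14, Nanog, Nr0b1 and Dppa3 in the 8 clones, with bars of 1 SE for the 4 genes. Prdm14 is above 0 in the 4 clones whose X-linked median is 0.33 to 0.87 and below 0 in the 4 whose median is -0.02 to 0.00, while the X-linked gene Nr0b1 is below 0 in both chr2 clones.

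Esrrb (ENSMUSG00000021255.17, chr12:86361117-86521628), an orphan nuclear receptor and target of the GSK3 and TCF7L1 axis, fell most in 3 lines. Its values were 483, 510 and 468 CPM in chr9-G9, 497, 520 and 517 CPM in chr2-D10 and 489, 486 and 477 CPM in chr2-G5, against 771, 782 and 746 CPM in the parental line. In chr9-F1 it stood at 762 and 775 CPM, inside the parental range. The 2 clones of the same chr9 deletion thus differed, by -0.66 ± 0.0461 (G9 minus F1, adjusted p = 5.15e-12), a larger step than the mean chr9 difference of -0.33 ± 0.0373 (2.27e-08) that combines them. The chr2 difference was -0.62 ± 0.0354 (2.87e-16). In the chr7 clones (662, 685 and 709 CPM as lowest, median and highest) the fall was small, -0.16 ± 0.0359 (0.000192), and in the chr3 clones (702, 762 and 795 CPM) no difference was called, at -0.02 ± 0.0361 (0.737).

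Nr0b1 (ENSMUSG00000025056.4, chrX:86191775-86195947), which encodes the X-linked orphan nuclear receptor DAX1, fell in the chr7, chr3 and chr2 clones. It ran from 24.2 through 30.8 to 33.8 CPM in the chr7 clones and from 36.6 through 40.6 to 43.1 CPM in the chr3 clones, against 77.5, 82.5 and 73.2 CPM in the parental line. In the chr2 clones it stood at 52.3, 47.9 and 47.9 CPM in chr2-G5 and 22.6, 28 and 21.8 CPM in chr2-D10, all below the parental line. The log2 differences were -1.37 ± 0.0739 (adjusted p = 1.01e-16), -0.94 ± 0.0735 (1.01e-12) and -1.17 ± 0.0741 (4.13e-15) for chr7, chr3 and chr2. The 2 chr2 clones differed from each other 2.04-fold, by 1.03 ± 0.0935 (G5 minus D10, 6.1e-11), although their X-linked medians were 0.87 and 0.83. In the chr9 clones it was 83.8, 93.2 and 73.8 CPM in chr9-G9, overlapping the parental line, and 109 and 115 CPM in chr9-F1, above it. The chr9 rise of 0.32 ± 0.0774 (0.00142) thus combines unlike clones, and chr9-G9 differed from chr9-F1 by -0.43 ± 0.0942 (0.000685).

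Klf4 (ENSMUSG00000003032.8, chr4:55527137-55532475), a Krüppel-like factor induced by STAT3, fell in every chr7, chr3 and chr2 clone. It ran from 112 through 149 to 179 CPM in the chr7 clones, from 163 through 173 to 182 CPM in the chr3 clones and from 104 through 143 to 163 CPM in the chr2 clones, against 288, 304 and 289 CPM in the parental line. None of these 18 libraries reached the parental range. Klf4 differed by log2 values of -1.02 ± 0.0671 (adjusted p = 1.38e-14), -0.77 ± 0.0673 (1.67e-11) and -1.09 ± 0.0671 (1.94e-15) for chr7, chr3 and chr2. The chr9 clones were unlike. All 3 chr9-G9 libraries (242, 275 and 230 CPM) lay below the parental ones and chr9-G9 was called lower, at -0.24 (adjusted p = 0.0134), a call lost without parental replicate 2 or chr9-G9 replicate 1 or 3 (0.0505 to 0.0864). In chr9-F1 (306 and 304 CPM) no difference was called, at 0.05 (0.735), nor for the mean of both clones, at -0.09 ± 0.0711 (0.323).

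Klf2 (ENSMUSG00000055148.7, chr8:72319062-72321654), the Krüppel-like factor whose protein ERK is known to destabilise, fell in the same 3 deletions. It ran from 56.7 through 66.1 to 76.7 CPM in the chr7 clones, from 54.3 through 56.8 to 63 CPM in the chr3 clones and from 47.8 through 60.8 to 64 CPM in the chr2 clones, against 99.3, 108 and 94.8 CPM in the parental line. None of these 18 libraries reached the parental range. The log2 differences were -0.59 ± 0.102 (adjusted p = 6.51e-06), -0.81 ± 0.102 (2.77e-08) and -0.78 ± 0.102 (5.22e-08) for chr7, chr3 and chr2. The chr9 value, 0.23 ± 0.107 (0.0989), was not called. Klf2 was 93.8, 161 and 95.9 CPM in chr9-G9, and 1 library, the second, set the sign of the chr9-G9 difference, which was 0.21 (0.146) with it and -0.09 (adjusted p = 0.416) without it. Without it the chr9 value was 0.07 (0.424), still not called. The chr9 value was called without replicate 1 or replicate 3 of chr9-G9, at 0.29 each (0.0221 and 0.0271), and with no filter on low counts (0.22, 0.000218). Without that library chr9-G9 was called lower than chr9-F1 (116 and 122 CPM), at a log2 of -0.33 (0.00521). The summed feeder fibroblast markers, described further on, were 399, 433 and 631 CPM in chr9-G9 replicates 1, 2 and 3, and their part in the Klf2 levels was not tested.

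Tfcp2l1 (ENSMUSG00000026380.10, chr1:118627923-118685168), the other STAT3 target, varied least after Zfp42, with line means within 1.44-fold of each other. It was 927 and 912 CPM in chr9-F1 and 910, 873 and 903 CPM in chr9-G9, against 779, 763 and 760 CPM in the parental line, a rise of 0.24 ± 0.0389 (adjusted p = 8.48e-06) with no overlap. In the chr7 clones (621, 660 and 736 CPM) every library lay below the parental ones, with a log2 difference of -0.19 ± 0.037 (3.79e-05), while the chr3 (727, 782 and 886 CPM) and chr2 (698, 761 and 780 CPM) libraries overlapped the parental ones, with log2 values of 0.04 ± 0.0373 and -0.03 ± 0.0372 that were not called (0.398 and 0.47). The chr3 clones differed from each other by -0.19 ± 0.043 (H7 minus C2, 0.0248), a call lost without any 1 of 4 libraries (chr3-C2 replicates 1 and 3, chr3-H7 replicates 1 and 3).

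Tbx3 (ENSMUSG00000018604.18, chr5:119670534-119684724), a T-box factor, fell most in the chr2 clones. It ran from 80 through 97.9 to 99.7 CPM there, from 120 through 127 to 134 CPM in the chr7 clones and from 132 through 137 to 143 CPM in the chr3 clones, against 162, 164 and 155 CPM in the parental line. All 18 libraries lay below the parental ones. Tbx3 differed by log2 values of -0.75 ± 0.0507 (adjusted p = 1.92e-14), -0.33 ± 0.051 (1.24e-06) and -0.22 ± 0.0511 (0.000406) for chr2, chr7 and chr3. In chr9-G9 it stood at 158, 188 and 168 CPM, which overlapped the parental line, and in chr9-F1 at 226 and 230 CPM, above it. The chr9 rise of 0.30 ± 0.0537 (3.33e-05) came with a difference between its clones of -0.41 ± 0.0655 (G9 minus F1, 1.05e-05).

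Dppa3 (ENSMUSG00000046323.8, chr6:122626424-122630271), which encodes the STELLA protein of oocytes, germ cells and the early embryo, lies 77.2 kb from Nanog and had the widest spread of the 10, with line means 5.51-fold apart. It ran from 32.1 through 35 to 37.5 CPM in the chr2 clones, from 15.2 through 16.1 to 19.2 CPM in the chr7 clones and from 14.1 through 15.7 to 17 CPM in the chr3 clones, against 7.96, 7.89 and 8.66 CPM in the parental line. Every one of these libraries lay above the parental ones. The log2 differences were 2.09 ± 0.0777 (adjusted p = 8.46e-21), 1.03 ± 0.0758 (1.79e-13) and 0.94 ± 0.0755 (2.37e-12) for chr2, chr7 and chr3. The chr9 clones went opposite ways: 20.7, 21.5 and 24.6 CPM in chr9-G9 and 6.48 and 6.16 CPM in chr9-F1, a difference of 1.82 ± 0.0978 (G9 minus F1, 6.14e-15). The fall in chr9-F1, -0.37 (0.00429), was lost without its replicate 2 (adjusted p = 0.0768).

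Zfp42 (ENSMUSG00000051176.6, chr8:43295067-43307009), the zinc-finger gene Rex1 used as a reporter of the naive state, changed least, with line means within 1.32-fold. It was 102, 105 and 114 CPM in the chr7 clones, 92.8, 94.8 and 101 CPM in the chr3 clones and 90.9, 94.7 and 113 CPM in the chr2 clones as lowest, median and highest, against 80.6, 87.5 and 80.8 CPM in the parental line. All were above the parental range, with log2 values of 0.36 ± 0.0431 (adjusted p = 1.2e-08), 0.20 ± 0.0428 (0.000116) and 0.25 ± 0.043 (7.68e-06) for chr7, chr3 and chr2. The chr9 clones were unlike. In chr9-G9 (81.9, 83.8 and 82.1 CPM) no difference was called, at -0.01 (adjusted p = 0.934), and chr9-F1 (93.9 and 92.6 CPM) was called higher, at 0.17 (0.0214), a call lost without parental replicate 1 or 3 or either chr9-F1 library (0.0815 to 0.14). The mean of both clones was not called, at 0.08 ± 0.0441 (0.152).

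**Figure D3:**
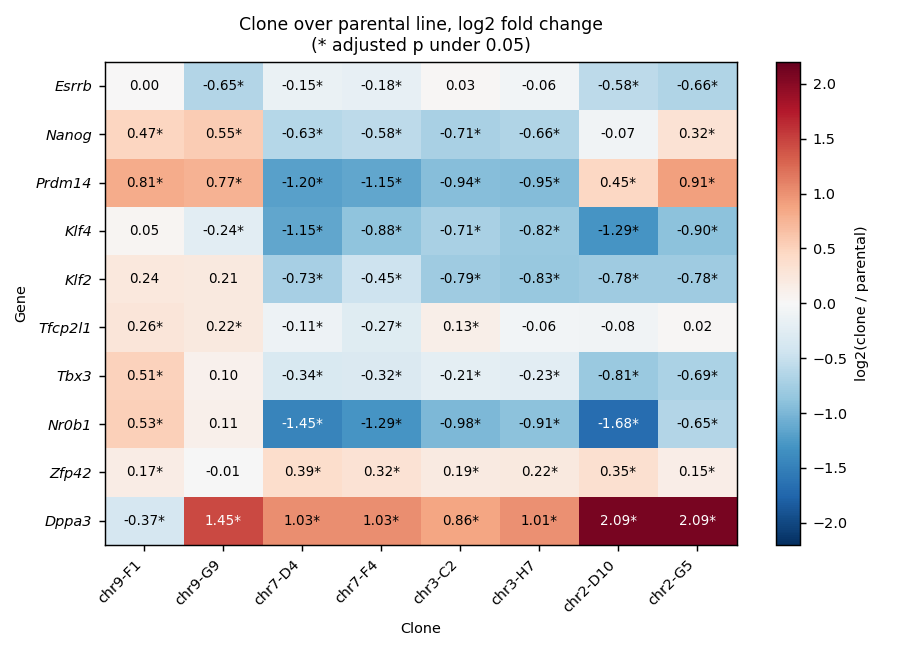
Log2 of each of the 8 clones (columns) over the parental line for the 10 factors (rows), red for higher and blue for lower, with an asterisk where the adjusted p of edgeR's test is under 0.05. The 2 chr7 columns have the same sign for all 10 factors, while chr9-G9 departs from chr9-F1 for Esrrb (-0.65 and 0.00) and Dppa3 (1.45 and -0.37).

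Clone by clone, 7 factors were called in chr9-F1, 6 in chr9-G9, 10 in each chr7 clone, 9 in chr3-C2, 8 in chr3-H7, 8 in chr2-D10 and 9 in chr2-G5. The shares of all tested genes called in these clones were 24.3%, 45.6%, 59.5% (chr7-D4), 56.9% (chr7-F4), 55.8%, 55.2%, 66.5% and 54.9%. Of the 10 in chr7-D4, Tfcp2l1 was called weakly, at -0.11 (adjusted p = 0.0229 by edgeR's test). Its call was lost with the DESeq2 test (0.143), and by edgeR's test with thinned counts (0.389) and without X and Y genes (0.232). Esrrb lost its call in chr7-D4 with thinned counts (0.0608). Both clones of a deletion were called the same way for 3 factors in chr9, all higher, for 10 in chr7 (2 higher, 8 lower), for 8 in chr3 (2 higher, 6 lower) and for 8 in chr2 (3 higher, 5 lower). The share of all tested genes called the same way in both clones was not computed, so nothing is read from these counts. Directly compared, chr9-G9 and chr9-F1 differed in 6 factors (31.5% of all genes) and chr2-G5 and chr2-D10 in 5 (50.7%). chr3-H7 and chr3-C2 differed in 1 (0.86%). chr7-F4 and chr7-D4 differed in 0 by edgeR (0.965%), in 3 at an unadjusted p under 0.05 and in 1 by DESeq2. The shares of all genes at that unadjusted p and by DESeq2 are not given, so nothing is read from those counts. In the lower depth range, 9 factors separated chr7 from the mean of the other 2 deletions (39.5% of all genes), 9 separated chr3 (44.7%) and 6 separated chr2 (59.8%). Dppa3 was again higher in the chr2 clones there, by 1.11 ± 0.0494 (adjusted p = 3.88e-19), and Esrrb and Tbx3 were lower, by -0.53 ± 0.0262 (4.63e-18) and -0.48 ± 0.0379 (1.05e-12).

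Ordered by line mean, most neighbouring lines could not be separated. For Prdm14, chr2-G5, chr9-F1 and chr9-G9 (50, 46.4 and 45.2 CPM) came first without a called step between them, then chr2-D10 (36.2 CPM) and the parental line (26.5 CPM), each a called step below the line before it. The 4 chr3 and chr7 lines followed, from 13.8 to 11.5 CPM, with no called step among them. For Esrrb the only called step lay between chr7-F4 (677 CPM) and chr2-D10 (511 CPM), with 6 lines above it and 3 at or below 511 CPM. For Dppa3 both chr2 lines led (34.8 and 34.7 CPM), chr9-G9 followed at 22.3 CPM, the chr7 and chr3 lines ran from 16.8 to 14.9 CPM, and the parental line (8.17 CPM) and chr9-F1 (6.32 CPM) came last. For Nr0b1 there were 5 called steps of 8, for Klf4 and Tbx3 3 each, for Nanog 2, and for Klf2, Tfcp2l1 and Zfp42 1 each.

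Other genes of the naive state and of the 3 signals that hold it were read from lists of known genes, whose counts are descriptions. Over all tested genes 17.1% rose and 20.6% fell in chr9, 27.6% and 35.7% in chr7, 25.4% and 35.4% in chr3, and 31.2% and 34.1% in chr2, with median log2 values of -0.02, -0.07, -0.07 and -0.02, and nothing is read from a list whose shares lie near these. Of 15 other naive-state genes, 5 rose and 4 fell in the chr9 clones, 3 rose and 10 fell in chr7, 4 rose and 10 fell in chr3, and 5 rose and 10 fell in chr2, with list medians of 0.04, -0.63, -0.44 and -0.62. Gbx2, a homeobox gene, fell to 2.28, 2.7 and 2.47 CPM in the chr7, chr3 and chr2 clones, against 13.1 CPM in the parental line, with log2 values of -2.53, -2.28 and -2.54 (chr2-G5 3.49 CPM, chr2-D10 1.45 CPM). Tdh, the threonine dehydrogenase on which mouse embryonic stem cells depend, averaged 123 CPM in the chr7 clones and 181 CPM in the chr2 clones, against 474 CPM in the parental line (log2 -1.96 and -1.91). The chr2 mean joins unlike clones, with 312 CPM in chr2-G5 and 51.3 CPM in chr2-D10. Dppa5a went the other way. It averaged 5106 and 4139 CPM in chr2-D10 and chr2-G5, 3685 and 4255 CPM in chr3-C2 and chr3-H7, 3708 and 3627 CPM in chr7-D4 and chr7-F4 and 3123 CPM in chr9-G9, all called higher, against 1970 CPM in the parental line, and in chr9-F1 (2072 CPM) no difference was called.

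Of 12 genes of LIF and STAT3 signalling, 3 rose and 4 fell in chr9, 4 and 4 in chr7, 5 and 4 in chr3, and 5 and 6 in chr2, with medians of -0.01, -0.03, 0.07 and -0.02 that lay near those of all genes. The STAT3 target Pim1 rose in all 4, by log2 values of 0.61, 0.68, 0.64 and 1.30. Other genes of the list went both ways. Bcl3 fell in chr7, chr3 and chr2, by -1.16, -1.19 and -0.82, and Socs3 and Stat3 fell in chr9, by -0.38 and -0.41. Lifr rose in chr7 and chr3, by 0.41 and 0.52, and Lif rose in chr2, by 0.68. Of 14 tested genes of GSK3 and beta-catenin signalling, 3 rose and 2 fell in chr9, and none rose while 9, 10 and 11 fell in chr7, chr3 and chr2, with medians of -0.06, -0.20, -0.26 and -0.25. Lef1, a DNA-binding partner of beta-catenin, fell in all 4, to 2.3 CPM in the chr7 clones against 25.1 CPM in the parental line (log2 -3.47 ± 0.12, adjusted p = 3.49e-21), and Axin2, a feedback inhibitor and standard target, fell in both chr7 and both chr2 clones (log2 -1.04 and -1.52 over each pair), in chr3-C2 and chr3-H7 (-0.67 and -0.82) and in chr9-G9 (-0.49), with no call in chr9-F1 (0.14).

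Of 14 genes that report MEK and ERK output, 1 rose and 6 fell in chr9, 2 rose and 8 fell in chr7, 1 rose and 10 fell in chr3, and 2 rose and 10 fell in chr2, with medians of -0.15, -0.33, -0.34 and -0.79. Spry4 and Dusp6, feedback inhibitors that ERK induces, were lowest in the lines in which Esrrb was lowest and Dppa3 highest, a pairing chosen after the values were seen. Spry4 averaged 7.38 CPM in chr9-G9, 3.45 CPM in chr2-D10 and 8.69 CPM in chr2-G5, and 27.5 to 33.7 CPM in the other 5 clones, against 36.9 CPM in the parental line. Dusp6 averaged 9.37, 3.59 and 6.9 CPM in the same 3 clones and 15.8 to 21 CPM in the other 5, against 24.2 CPM. Between the chr9 clones Spry4 differed by -2.16 (G9 minus F1, adjusted p = 6.14e-15) and Dusp6 by -1.13 (2.37e-07), beside the -0.66 of Esrrb and the 1.82 of Dppa3. Other genes of the list were ordered differently. Dusp4 averaged 11.9 CPM in chr2-D10, its highest level, against 3.78 CPM in the parental line. Etv4 and Myc were lower in chr7-F4 (35.9 and 1.46 CPM) than in chr9-G9 (45.3 and 4.36 CPM), against 77.8 and 13.7 CPM in the parental line, and Myc was lowest in chr2-D10 (0.236 CPM). Whether any of these move together for a shared reason was not tested.

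Of 11 genes of general pluripotency, 1 rose and 5 fell in chr9, none rose and 8 fell in chr7, 5 rose and 5 fell in chr3, and 1 rose and 8 fell in chr2, with medians of -0.15, -0.32, -0.04 and -0.55. Tdgf1, the Nodal co-receptor, fell in all 4, to 1335 CPM in the chr7 clones against 2234 CPM in the parental line (log2 -0.75 ± 0.0419, adjusted p = 2.56e-16). It fell most in the chr2 clones, to 1210 CPM (log2 -0.92 ± 0.0418), with 957 CPM in chr2-D10 and 1464 CPM in chr2-G5. Pou5f1 averaged 1004 to 1313 CPM over the clones, against 1077 CPM, and Sox2 295 to 361 CPM, against 296 CPM. Of 14 formative and primed genes, which mark the states that follow, 2 rose and 2 fell in chr9, 2 and 10 in chr7, 2 and 9 in chr3, and 1 and 8 in chr2, with medians of -0.03, -0.86, -0.67 and -0.26. Dnmt3b, the DNA methyltransferase that Prdm14 is known to repress, was called lower in both chr7 and both chr3 clones (82.7, 85.1, 109 and 114 CPM), where Prdm14 fell, against 167 CPM in the parental line. In the 4 clones where Prdm14 rose it was lower in chr2-D10 (47.4 CPM) and chr9-G9 (130 CPM), higher in chr9-F1 (206 CPM) and not called in chr2-G5 (162 CPM).

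Markers of other cells also moved with the lines. The 25 markers of feeder fibroblasts summed to 278 to 323 CPM in chr9-F1, 399 to 631 CPM in chr9-G9, 185 to 239 CPM over the 6 other clones and 255 to 288 CPM in the parental line, and of 23 tested, 20 rose in chr9, 1 rose and 15 fell in chr7, 20 fell in chr3, and 6 rose and 8 fell in chr2. Col1a1, the most abundant collagen of the list in the parental line, averaged 24.4 CPM in chr9-F1, 85.3 CPM in chr9-G9, 11.3 CPM in each chr7 clone, 2.94 and 3.54 CPM in chr3-C2 and chr3-H7, and 14.3 and 15.6 CPM in chr2-D10 and chr2-G5, against 18.2 CPM in the parental line. Mmp2 ran from 9.43 CPM in chr2-G5 to 20.2 CPM in chr2-D10, against 10.8 CPM. Fstl1 alone made up most of the parental sum, at 152 CPM, so the sums largely follow this gene. It averaged 97.4 and 89.5 CPM in chr2-D10 and chr2-G5, where Col5a1 was higher (25.7 and 21.8 CPM, against 13.1 CPM). In chr9-F1 and chr9-G9 Fstl1 averaged 144 and 143 CPM. Up to 4 of the 25 were at 0 in a library, and the defining markers Lum, Dcn and Twist2, at 0 in some chr7 and chr3 clones, stood at 0.00887, 0.0615 and 0.0454 CPM in the parental line, near 0 there as well. The 16 markers of 2-cell-like cells summed to 195 to 200 CPM in chr9-F1, 62 to 68.2 CPM in chr9-G9, 15.1 to 23.5 CPM in the chr2 clones, 3.94 to 10.7 CPM in the chr7 and chr3 clones and 35.9 to 36.8 CPM in the parental line. The 15 germ cell markers summed to 762 to 924 CPM in the chr2 clones and 545 to 706 CPM in the chr9 clones, and to 338 to 434 CPM in the chr7 and chr3 clones and 348 to 369 CPM in the parental line. In chr2-D10 and chr2-G5 these sums included 243 and 335 CPM of Rhox5 (parental 34.6 CPM) and 112 and 67.1 CPM of Dazl (20.4 CPM). Ddx4 was 31.6 and 14.8 CPM there, against 26.5 CPM. Of 15 tested 2-cell-like markers 15 rose in chr9, 14 fell in chr7, 15 fell in chr3, and 1 rose and 8 fell in chr2, and of 15 germ cell markers 9 rose and 1 fell, 7 and 2, 4 and 6, and 11 and 2 in the same order. Of 16 primitive endoderm markers 9 rose and 0 fell, 5 and 3, 5 and 3, and 8 and 5, and of 14 trophoblast markers 4 rose and 6 fell, 7 and 4, 5 and 6, and 6 and 5, again for chr9, chr7, chr3 and chr2. The summed primitive endoderm markers were 1263 to 1372 CPM in the chr9 clones, 923 to 1007 CPM in chr7, 998 to 1195 CPM in chr3 and 1101 to 1403 CPM in chr2, against 1137 to 1200 CPM in the parental line. The trophoblast markers summed to 123 to 136, 176 to 190, 176 to 189 and 129 to 168 CPM in the same order, against 152 to 155 CPM in the parental line. There, Lamc1 (587 CPM) and Sparc (373 CPM) made up most of the endoderm sum. Tfap2c (48.8 CPM), Tead4 (37.4 CPM) and Eomes (24.9 CPM) made up most of the trophoblast sum. The markers Gata6, Sox17, Cdx2 and Elf5 stood near 0 in the parental line, at 0.739, 0.435, 0.0809 and 0.0339 CPM. In bulk RNA fewer cells of a type and less RNA per cell cannot be told apart, and the part of these cells in the factors' levels was not tested.

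In E14 cells RNAPII lay at all or most of the 10 genes, depending on the assay, PRC2 at 7 and CTCF at 1. Peaks are the authors' calls on pooled libraries, each with the authors' fold enrichment, and a gene counts where a peak lies within 2 kb of a listed start, or of either gene end for Prdm14, Tbx3 and Dppa3. By RNAPII ChIP 7 of 10 had such a peak (49% of 21887 protein-coding genes) and by RNAPII ChIA-PET, which enriches contacts bound by the polymerase, all 10 did (61.8%). PRC2 peaks were at 7 (27.7%), H3K27me3 peaks at 4, Esrrb, Klf4, Prdm14 and Tbx3 (13.2%), and a CTCF peak at 1, Zfp42 (18.3%). Among 10217 genes with a mean of at least 5 CPM in B6NJ cells the shares were 87.4%, 97%, 25.4%, 8.7% and 23.5%. The counts of H3K27me3 and PRC2 genes depended on the weaker peaks, here in a wider window, the gene extended by 2 kb. With all peaks, 4 of the 10 genes held H3K27me3 (15.4% of all genes) and 8 held PRC2 (39.7%). With peaks at or above the median fold, 2 held H3K27me3 (9.06%) and 5 held PRC2 (25.7%). The CTCF peak at Zfp42 was weak, at 2.92-fold and above 0.597% of CTCF peaks. Esrrb held 3 CTCF peaks of up to 9.05-fold inside the gene, none within 2 kb of a listed start.

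**Figure D4:**
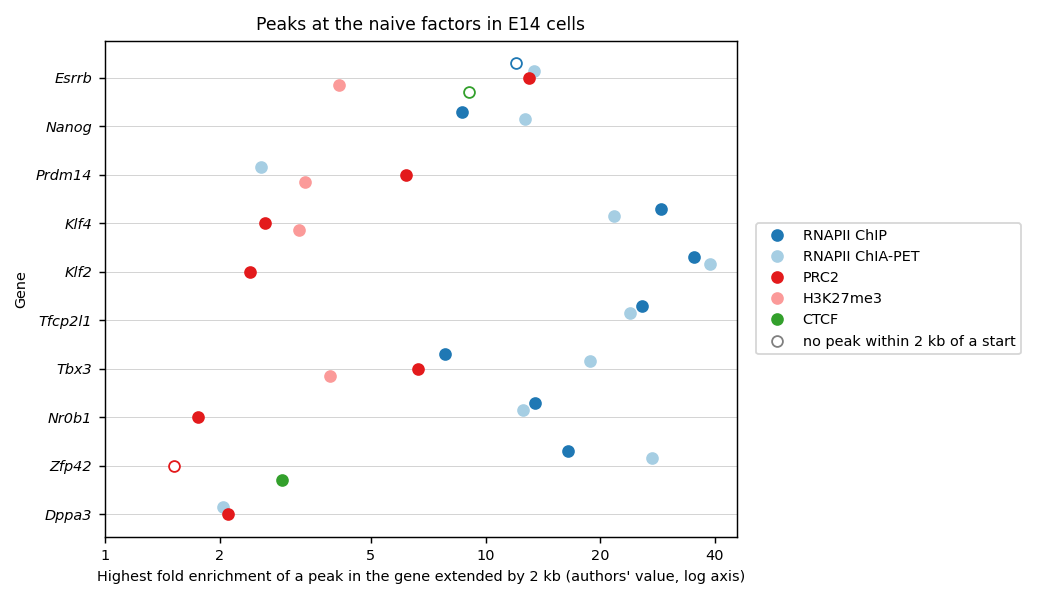
Highest fold enrichment (x axis, log scale, the authors' value) of a peak in each of the 10 genes extended by 2 kb, by mark, with an open circle where no peak of that mark lies within 2 kb of a listed start. Klf2 has the highest RNAPII values, 35.2 and 38.8, and Esrrb the highest PRC2 value, 13, while Prdm14 and Dppa3 have no RNAPII ChIP peak and Nanog and Tfcp2l1 no PRC2 peak.

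Klf2 carried the strongest RNAPII peaks of the 10, at chr8:72318625-72325686 with a 35.2-fold enrichment by ChIP and 38.8-fold by ChIA-PET. Klf4 (28.9-fold), Tfcp2l1 (25.7-fold), Zfp42 (16.5-fold), Nr0b1 (13.5-fold) and Nanog (7.53-fold) had RNAPII ChIP peaks over the start, and the Nanog and Zfp42 peaks span the printed TTTGCAT stretches. Prdm14 and Dppa3 had no RNAPII ChIP peak, and their ChIA-PET peaks were weak, at 2.57-fold and 2.04-fold.

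Esrrb held PRC2 and RNAPII peaks, with the strongest of each apart. A PRC2 peak of 4654 bp with a 13-fold enrichment, above 94.4% of PRC2 peaks, covered its second listed start (chr12:86419961-86424614), with an H3K27me3 peak of 2198 bp at 4.12-fold inside it. Its 13 RNAPII ChIP peaks began 48289 bp beyond that start, and the strongest, 12-fold, was at chr12:86489312-86490532 inside the gene. Weaker peaks of both kinds overlapped: 2 further PRC2 peaks, of 2.63-fold and 1.71-fold, lay on a 5.23-fold RNAPII ChIP peak (chr12:86501554-86504758), and an RNAPII ChIA-PET peak of 1.66-fold lay inside the PRC2 peak at the second start. PRC2 peaks of 5.57, 3.25 and 2.93-fold elsewhere in the gene began at the same base as RNAPII ChIA-PET peaks of 2.64, 1.87 and 1.94-fold. Tbx3 lay within broad domains, a PRC2 peak of 20265 bp (6.65-fold) and an H3K27me3 peak of 22875 bp (3.89-fold) over one end and 8670 bp and 8573 bp over the other, together with RNAPII ChIP peaks of up to 7.84-fold. At Prdm14 a PRC2 peak of 4886 bp (6.18-fold) and an H3K27me3 peak of 2530 bp (3.35-fold) lay over the gene end at chr1:13127163. Klf4 held a PRC2 peak of 2370 bp at 2.64-fold and an H3K27me3 peak of 784 bp at 3.23-fold, both overlapping its 28.9-fold RNAPII ChIP peak (chr4:55530949-55533586). Klf2, Dppa3 and Nr0b1 had PRC2 peaks of 885, 876 and 405 bp at 2.41, 2.1 and 1.76-fold and no H3K27me3 peak. These marks were read in serum with LIF and not in the inhibitors in which the B6NJ RNA was made.

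All 10 genes, extended by 2 kb, touched an anchor of a PRC2 interaction in E14 cells, as did 19949 of 21887 protein-coding genes, with a median of 7.5 interactions for the 10 and 6 for all. The interactions are the authors' significant pairs within a chromosome, each with its count of paired-end tags. Tbx3 stood apart with 1449 tags in 35 interactions. Its strongest (956 tags) lay between anchors with no gap between them, and 1 of these, chr5:119655311-119692427, covers the whole gene. The next reached Lhx5, a LIM homeobox gene 745 kb away (224 tags), and the third reached its neighbour Tbx5, another T-box gene 154 kb away (102 tags). Esrrb had 46 interactions with 277 tags, 121 of them in a link between overlapping anchors around its second start. Prdm14 had 19 interactions with 123 tags, 45 of them in a link with both anchors at the gene and 11 to Slco5a1, 130 kb away. Nanog and Dppa3, neighbours on chromosome 6, had no interaction between them, and the strongest of Nanog (25 tags) had both anchors at the gene. The leading interactions of Klf2 (9 tags) and Zfp42 (7 tags) went to the same 1 kb anchor at Tacc1 (chr8:25226367-25227373), 47089 and 18076 kb away, and that anchor takes part in 11306 interactions of the list. With at least 5 tags required, 34 of the 148 interactions at the 10 genes were left.

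**Figure D5:**
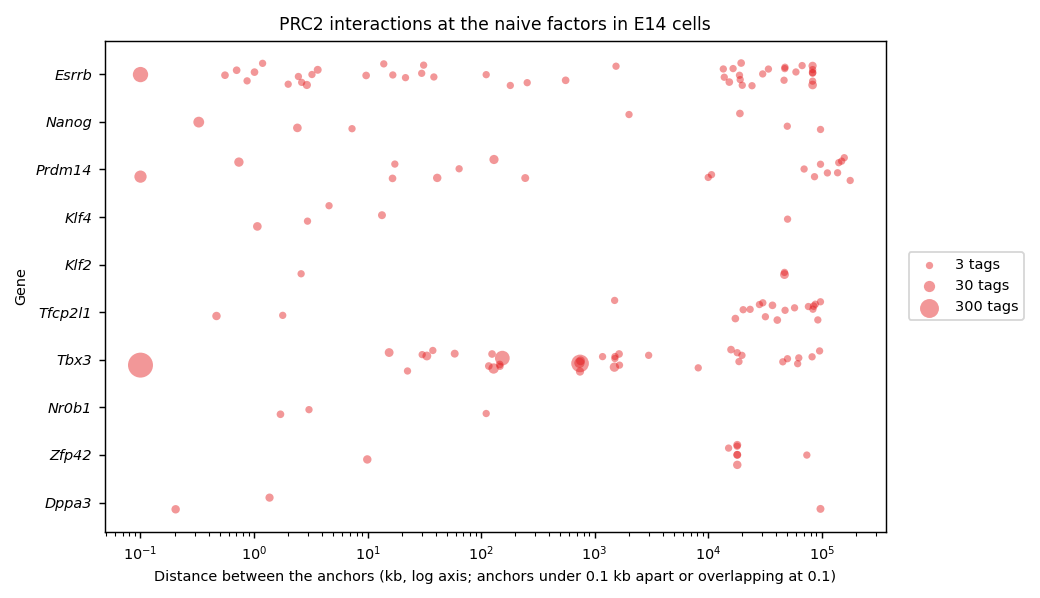
Distance between the anchors of each PRC2 interaction (x axis, kb on a log scale) that touches 1 of the 10 genes (rows) in E14 cells, with point area growing with the number of tags. Tbx3 holds the largest points, 956 tags between anchors at the gene with no gap, 224 tags at 745 kb and 102 tags at 154 kb. Nr0b1, Klf2 and Dppa3 hold 3 interactions each.

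Ezh2 ChIA-PET of the B6NJ lines (2 libraries each of chr9-F1, chr9-G9, chr7-D4, chr7-F4 and the parental line) listed 4734 to 9354 interactions a library, and 1 of the chr9-F1 libraries is described by its cell-type label as the parental cells. Esrrb and Tbx3 were linked in all 10 libraries. Esrrb tags numbered 64 and 198 (chr9-F1), 114 and 136 (chr9-G9), 274 and 81 (chr7-D4) and 227 and 35 (chr7-F4), against 19 and 81 in the parental line. For Tbx3 they were 19 and 16, 19 and 29, 61 and 27, and 42 and 28 in the same 4 clones, against 27 and 35, so that the clones and the parental line overlapped. Prdm14 had links in all 8 clone libraries, with 7 and 19 tags (chr9-F1), 6 and 7 (chr9-G9), 65 and 28 (chr7-D4) and 59 and 11 (chr7-F4), against 0 and 0 in the parental line. The libraries differ in depth and list only significant pairs, so a link that is not listed is not shown to be absent, and no test was made on 2 libraries a line. Nanog, Klf4, Tfcp2l1 and Nr0b1 had no link listed in any of the 10 libraries. Klf2 had 1, of 3 tags in chr7-D4, and Dppa3 had 1 in each chr9-G9 library, of 4 and 11 tags. Zfp42 had 1 of 4 tags in chr9-F1 and 1 of 3 tags in chr7-F4, against 1 of 3 tags in the parental line.

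For each factor the 2 genes whose line means were most like its own over the 9 lines were named, by Pearson r of log2 CPM among 10266 genes. Egfl6 (r = 0.996) and Adrb3 (0.995) were closest to Prdm14, and Egfl6 averaged 21.5 CPM in chr2-G5 and 2.77 CPM in chr7-D4. Tubb2a (0.994) and Gabarapl2 (0.992) were closest to Nanog, Ptbp1 (0.987) and Sesn2 (0.986) to Esrrb, Pik3r4 (0.99) and Ckap4 (0.988) to Nr0b1, and Spop (0.993) and Nol11 (0.989) to Klf4. Chpf (0.984) and Gipc1 (0.982) were closest to Klf2, Zfhx3 (0.975) and Kdm3b (0.969) to Tbx3, Fahd2a (0.968) and Plekha4 (0.962) to Dppa3, Kctd20 (0.96) and Phkg2 (0.96) to Zfp42, and Garem1 (0.942) and Mcm9 (0.935) to Tfcp2l1. High values are common over so few lines: 788 genes reached 0.9 with Nr0b1 and 405 with Nanog, but 3 with Tfcp2l1.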

How the data were processed

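RNA, chromatin immunoprecipitation and ChIA-PET files of 107 samples were used as deposited. The deposited RNA files hold counts per gene. Per the submitters' processing notes, Trim Galore 0.4.0, HISAT2 2.1.0, Cufflinks and HTSeq 0.6.1 were used with mm10, cutadapt 1.14 and BWA 0.7.12 for chromatin reads, and MACS2 2.1.1.20160309 for peaks, and 1 RNA library's notes name no tools. The peak lists give the authors' fold (ratio) of each peak and the −log10 of its p-value, and the authors' interaction lists give tag counts with a p-value for each pair. The libraries were prepared with a stranded kit per the labels' protocols, and no source used here gives the strand setting of the counting.

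Genes passing filterByExpr (minimum count 10, 19993 genes) were fitted in edgeR 4.0.16 (R 4.3.3) by the quasi-likelihood test on all 26 libraries with TMM scaling and no replicate block. The p-values were adjusted over all tested genes, and the common biological coefficient of variation was 7.39%. CPM use the TMM-scaled sizes. Rows naming no gene (no feature, ambiguous and the like) were left out of library sizes, and alignments outside any gene came to 3.52% to 5.84% of all alignments counted. Libraries held 39.7 to 128 M counts. No pair of libraries of 1 line agreed within sampling noise: their counts differed by 4.27 to 56 times the variance that sampling gives, over 25 pairs.

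Gene and promoter positions are RefSeq, GRCm38.p6. Peaks and interaction anchors were joined to genes extended by 2 kb with an overlap of at least 1 base. The 10 members and all lists were chosen with earlier results of these data known. Named list genes are the 3 with the largest called change per list and deletion where the mean level reached 5 CPM, and Spry4 and Dusp6 by line were chosen after their values were seen. Alternatives were DESeq2 1.42.0 and its size factors, no filter, thinned counts, only the compared libraries, no X and Y genes, a 1.2-fold test, a threshold of 0.01, a replicate block and each library left out.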

Additional observations from a re-analysis of the deposited data

Results flagged for a closer look

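In 12 cases 2 clones of the same deletion differed by a test of the difference itself (edgeR's quasi-likelihood test, adjusted over all tested genes). Between chr9-G9 and chr9-F1, Dppa3 differed by 1.82 on the log2 scale (adjusted p = 6.14e-15), Esrrb by -0.66 (5.15e-12), Nr0b1 by -0.43 (0.000685) and Tbx3 by -0.41 (1.05e-05). Klf4 differed there by -0.29 (0.0108) and Zfp42 by -0.17 (0.0133), and neither passed a threshold of 0.01. The Klf4 call was lost without either chr9-F1 library or chr9-G9 replicate 3 (adjusted p 0.0613 to 0.0705), and the Zfp42 call without either chr9-F1 library (0.0644 and 0.0976).

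Between chr2-G5 and chr2-D10, Nr0b1 differed by 1.03 (adjusted p = 6.1e-11), Prdm14 by 0.47 (9.68e-07), Nanog by 0.39 (8.83e-07), Klf4 by 0.39 (0.00014) and Zfp42 by -0.20 (0.000958). Between chr3-H7 and chr3-C2, Tfcp2l1 differed by -0.19 (0.0248). No outlier test was made within groups of 2 or 3 libraries.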

How the results depend on the processing

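Requiring a change over 1.2-fold moved the counts of called factors most: 3 for chr9 against the parental line, 4 for chr9-F1, 6 for chr7-F4, 3 for chr9-G9 against chr9-F1, 3 for chr2-G5 against chr2-D10, 0 for chr3-H7 against chr3-C2 (also 0 at a threshold of 0.01), 4 for chr3 and 2 for chr7 against the other 2 deletions. Of the 40 values against the parental line, 11 lost their call in this test. Over all genes it left 2391 called for chr9, 8371 for chr7 and 7503 for chr3, against 7544, 12653 and 12156 without it. For chr7-F4 against chr7-D4, DESeq2 called 1 factor and edgeR without a filter 2. The shares of all genes called under these settings are not given for single clones, for clone against clone or for the other 2 deletions. Nothing is read from the counts of factors there.

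Signs turned only for values that were not called: Esrrb in chr3 (0.0261 with DESeq2 size factors and with the DESeq2 test, 0.0348 thinned, 0.0307 without X and Y genes and 0.0388 with only the compared libraries), Tfcp2l1 in chr2 (0.0195 thinned, 0.0224 without X and Y genes) and Klf2 in chr9-G9 against chr9-F1 (0.0322 thinned, 0.0029 without X and Y genes). With 1 library left out, that Klf2 value ran from -0.33 to 0.11, Klf2 in chr9-G9 against the parental line from -0.0878 to 0.35, and Nanog in chr2-D10 against the parental line from -0.17 to 0.0111. The called factors ran from 0 to 1 for chr3-H7 against chr3-C2 and from 0 to 2 for chr7-F4 against chr7-D4, with no share of all genes given beside them.

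Genes with a peak at or above the median fold were 5 for PRC2 (25.7% of all genes), 2 for H3K27me3 (9.06%) and 1 for CTCF, Esrrb (30.2%). CTCF reached 7 within 10 kb, near the 64% of all genes and 79.8% of expressed genes, and 34 interactions had at least 5 tags. The cause of these changes was not tested. The replicate numbers do not pair the libraries (23 pairs, r from -0.03 to 0.04), and with a replicate block all 40 values against the parental line and all 106 other values kept their call and direction. With counts thinned to the smallest library, 37 of the 40 values against the parental line kept their call and direction. The 2 that turned sign were not called, and 1, Tfcp2l1 in chr3, gained a call (0.0931, adjusted p = 0.0372 by edgeR's test). Lower depth in the chr7, chr3 and chr2 clones limits the comparison with the parental line.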
